A study of Drosophila melanogaster with 10 samples.

Results

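Transposable element insertions were annotated as 5416 of the 23882 features counted in sorted Kenyon cells (KCs). The 988 insertions described here are those with 10 or more reads in all over the 10 samples. They belong to 106 element families, of which 17 had a single insertion. They were chosen by their number of reads summed over both genotypes, which is therefore given as a description only. Reads in 1 genotype alone were enough, and 26 had none in dSERT16 and 7 none in dSERT4. At the edge of the rule, 53 insertions had 10 reads and were kept, and 43 had 9 reads and were left out.

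The samples were KCs, the intrinsic neurons of the mushroom bodies, sorted from the central brains of newly eclosed (day 0) females. There were 5 samples of dSERT16 flies, which lack DNA at the 5' end of the serotonin transporter gene, with a noncoding exon and upstream regulatory DNA, and 5 of dSERT4 flies, the background-matched control that itself carries a smaller deletion. All flies carried Mef2(P247)-gal4 driving UAS-nls.GFP and were homozygous for their dSERT allele. Each sample pooled brains whose optic lobes had been removed, and each of 5 collection dates gave 1 sample per genotype. Replicates are numbered 1 to 5 by date, and tests used replicates 2 to 5, the 4 pairs that the study kept. The study left out 1 pair, here replicate 1, for its modestly higher technical variability. Fits with all 5 pairs bring that pair back.

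Each library had between 18446396 and 69997102 reads on annotated features, and the deepest of each genotype was replicate 1. SerT, the targeted gene, had 5 to 51 reads in dSERT16 and 19 to 183 reads in dSERT4. The 11 KC markers summed, in read counts scaled to the library size (CPM), to 20952 to 21969 in dSERT16 and 19163 to 23398 CPM in dSERT4 over the 4 pairs, and 3 germ line markers reached at most 0.163 CPM in dSERT16 and 0.739 CPM in dSERT4. The samples thus carried the markers of their label, with 8 glial genes at 1000 to 1586 CPM in dSERT16 and 953 to 1602 CPM in dSERT4. Photoreceptor and eye genes summed to 137 to 197 CPM in dSERT16 and 122 to 183 CPM in dSERT4 over the 4 pairs. Markers of neurons with other transmitters were uneven between samples, at 21.7 to 104 CPM in dSERT16 and 24.6 to 74.9 CPM in dSERT4. In replicate 1, the glial genes were at 231 CPM in dSERT16 and 478 CPM in dSERT4. The part of such cells in the results below was not tested, and in bulk samples fewer cells of a type and less RNA per cell cannot be told apart.

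Transposable elements are DNA sequences that can move or be copied within a genome. LTR retrotransposons, such as copia, roo and the gypsy group, and non-LTR retrotransposons, such as Doc, Cr1a and Rt1b, are copied through RNA, while elements with terminal inverted repeats, such as S, 1360 and H (hobo), move as DNA. INE-1, a Helitron-related element, is the most numerous element of the fly genome and is present mostly as short, immobile remnants. HeT-A and TART are non-LTR elements that sit in tandem at chromosome ends and maintain Drosophila telomeres in place of telomerase. In the fly, small RNAs bound by Argonaute proteins silence many of these families.

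An insertion could be counted in these data only if it lay outside genes. Of the insertions placed by the annotation, 2625 lay wholly within the span of a gene, introns included, and none of these had a read in the counts used, while the same insertions had 133287 reads when the counts of each strand were summed. Reads there were thus not assigned wherever a gene and an insertion overlapped. Of the 988 insertions with 10 or more reads, 955 lay outside genes and 33 overlapped a gene in part. Reads within gene spans were therefore not compared between genotypes, and 353 of the insertions outside genes lay within 1 kb of one. Positions are those of the reference genome. Whether each insertion was present in the DNA of either genotype was not tested. In RNA counts, an insertion that is absent and one that is not transcribed cannot be told apart.

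Uniquely mapped reads on insertions outside genes were a small part of each library. Reads that mapped to several places, 0.875 to 1.13% of each library, were not counted. How many of those came from transposable elements was not tested, so the levels below are not total levels of the families. The 988 insertions received 118434 reads over all samples, 97.1% of all reads on insertions. Most were rarely read, with 309 insertions at 10 to 19 reads, 477 at 20 to 99, 186 at 100 or more but under 1000, and 16 at 1000 or more, and a median of 33 reads. The 10 insertions with the highest mean CPM held 27.9% of the reads, and 224 insertions had reads in all 10 libraries. In 223 insertions, at least 50% of the reads came from a single library. No counting intervals are given, since the reads carried no molecular identifiers.

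By class, 277 non-LTR retrotransposons held 41.4% of the reads, 286 LTR retrotransposons 25.9%, 145 terminal inverted repeat transposons 16.9% and 277 INE-1 insertions 15.5%. The remaining 3 insertions were 2 foldback elements and Porto1, for which no class was assigned. Insertions were unevenly spread along the chromosomes. On arm 2R, which held 281 of them, 50% started before position 5357548 of an arm annotated up to 25268581, and on 2L, which held 173, the median start was 21408826 of 23504446, so that both were concentrated toward the centromere. The short chromosome 4 held 86 insertions, 8.70% of all, and 21.4% of the reads.

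Insertions received 0.0284, 0.0293, 0.0330, 0.0265 and 0.0270% of the reads on features in dSERT16 replicates 1 to 5, against 0.0342, 0.0358, 0.0368, 0.0353 and 0.0262% in dSERT4. The mean over the 4 pairs was 0.0290% ± 0.00298 in dSERT16 and 0.0335% ± 0.00489 in dSERT4 (SD, n = 4 each). The ranges of the genotypes overlapped through dSERT4 replicate 5, the lowest sample. Without HeT-A the share was 0.0261% ± 0.00278 in dSERT16 and 0.0320% ± 0.00496 in dSERT4, while HeT-A alone took 0.00288% ± 0.000315 in dSERT16 and 0.00149% ± 0.000264 in dSERT4.

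LTR retrotransposons had a summed 75.2 ± 8.05 CPM in dSERT16 and 98.6 ± 15.1 CPM in dSERT4 (SD, n = 4 each), a ratio of 0.763. The range was 65.1 to 84.6 CPM in dSERT16 and 78.5 to 115 CPM in dSERT4, which overlapped. INE-1 stood at 44.1 ± 5.85 CPM in dSERT16 and 52.6 ± 7.38 CPM in dSERT4, and terminal inverted repeat transposons at 47.3 ± 6.77 CPM in dSERT16 and 54.7 ± 5.49 CPM in dSERT4. Non-LTR retrotransposons, which include HeT-A, stood at 125 ± 13.4 CPM in dSERT16 and 127 ± 18.3 CPM in dSERT4. No class separated the genotypes in the 4 pairs.

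**Figure D1:**
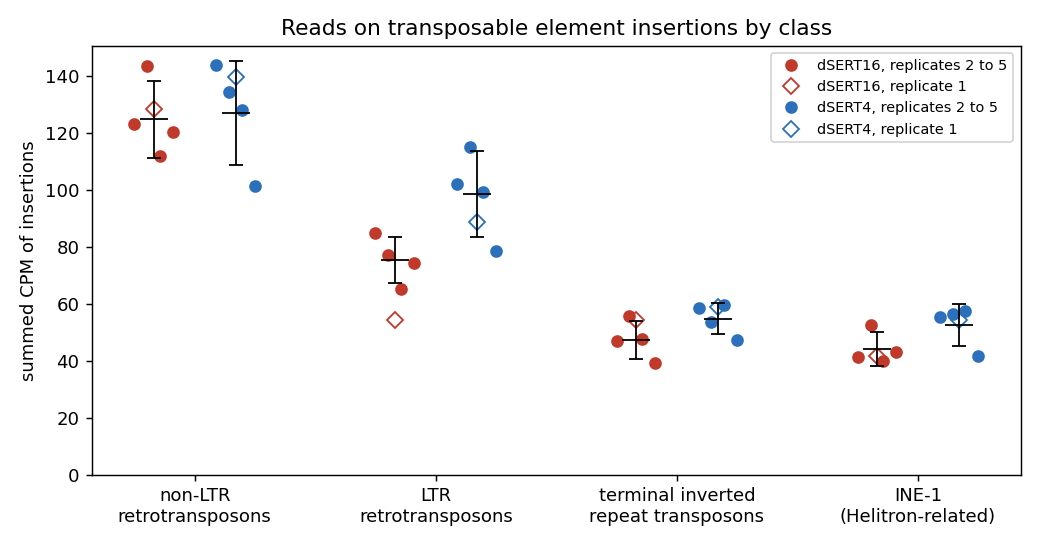
Summed CPM (y axis) of the insertions of each class (x axis) in dSERT16 (red, left) and dSERT4 (blue, right). Filled points are replicates 2 to 5, open diamonds replicate 1, and bars the mean and SD of the filled points; LTR retrotransposons averaged 75.2 CPM in dSERT16 and 98.6 CPM in dSERT4, and the ranges of the filled points overlapped in every class.

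To ask which insertions differed between genotypes, all features were tested together with edgeR's quasi-likelihood test in the 4 pairs, with Benjamini-Hochberg adjusted p-values. A filter on low counts left 136 of the 988 insertions, from 56 families, which held 70.7% of the reads. Only 2 of them passed an adjusted p of 0.05, HeT-A{}6262 and HeT-A{}4617, both higher in dSERT16, where 0.495% of all 8690 features passed, 0.265% higher and 0.23% lower. None of the 129 tested insertions of other families passed, and 11 of them had an unadjusted p under 0.05, of which 9 were lower in dSERT16. Over all features, 7.01% had an unadjusted p under 0.05. No label states that samples came from separate crosses, so p-values measure the spread between these samples.

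Other fits called a few more insertions. With all 5 pairs, 5 of 145 tested insertions passed, where 0.756% of all features did, and DESeq2 called 7 of 226, where 1.53% of all features passed. The further ones were HeT-A{}6268, INE-1{}3470 and S{}1511 in both fits, and Quasimodo{}3602 and roo{}1189 with DESeq2. With the collection date as a replicate block, HeT-A{}6262 alone passed in the 4 pairs (0.621% of all features), and HeT-A{}6262, HeT-A{}4617 and S{}1511 in all 5 pairs (1.08%). Without the filter, 4 of 985 insertions passed, where 0.498% of all features did.

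The tested insertions lay mostly below 0, with a log2 fold change under 0 in 87 of 136 (64.0%) and a median of -0.23, against 50% and a median of 0.00 over all features. Without HeT-A, 65.1% were under 0 with a median of -0.25. Genes of low level leaned to the same side, and the 2313 tested genes with a mean of 0.408 to 5.05 CPM had 59.5% under 0 and a median of -0.13. By class, the median was -0.48 for 36 LTR retrotransposons, -0.24 for 24 INE-1 insertions, -0.04 for 53 non-LTR retrotransposons and -0.04 for 22 terminal inverted repeat transposons. Leaving out each library in turn, the median of the tested insertions ranged between -0.34 and -0.13, the last being the median of those genes in the 4 pairs.

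The genotypes did not overlap in the 4 pairs in 20 of the 136 tested insertions, 5 higher and 15 lower in dSERT16, which is 14.7%, against 4.89% of all features, of which 2.5% were higher and 2.39% lower. Without HeT-A these were 2 higher and 13 lower, 11.6% of 129. Chromosome 4 held 10 of the 20, among 30 insertions tested there. These 20 included 7 INE-1 insertions, 5 copies of HeT-A and 2 of copia.

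Families were then compared by the summed counts of their insertions, of which 77 of 106 passed the filter on low counts. HeT-A was the only family called, with a summed log2 fold change of 0.97 (SE 0.17, edgeR adjusted p = 0.0198), where 0.498% of the features in that fit passed. HeT-A, copia and S passed with all 5 pairs (0.751% of all features in that fit), with all 5 pairs and the collection date as a block (1.09%) and with DESeq2 (1.43%). Of the 77 families, 60 had a log2 fold change below 0 (77.9%) and 17 above, with a median of -0.25, where 49.4% of all features in that fit, and 59.5% of the genes of low level above, lay below 0. An unadjusted p under 0.05 was reached by 6 families (HeT-A, copia, S, Quasimodo, Cr1a and X), 7.79% of the families against 6.95% of all features in that fit. The genotypes did not overlap in 5 families. HeT-A was higher and copia, S, Quasimodo and GATE were lower in dSERT16, 6.49% of the families, where 4.75% of all features in that fit did not overlap, 2.47% higher and 2.28% lower.

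**Figure D2:**
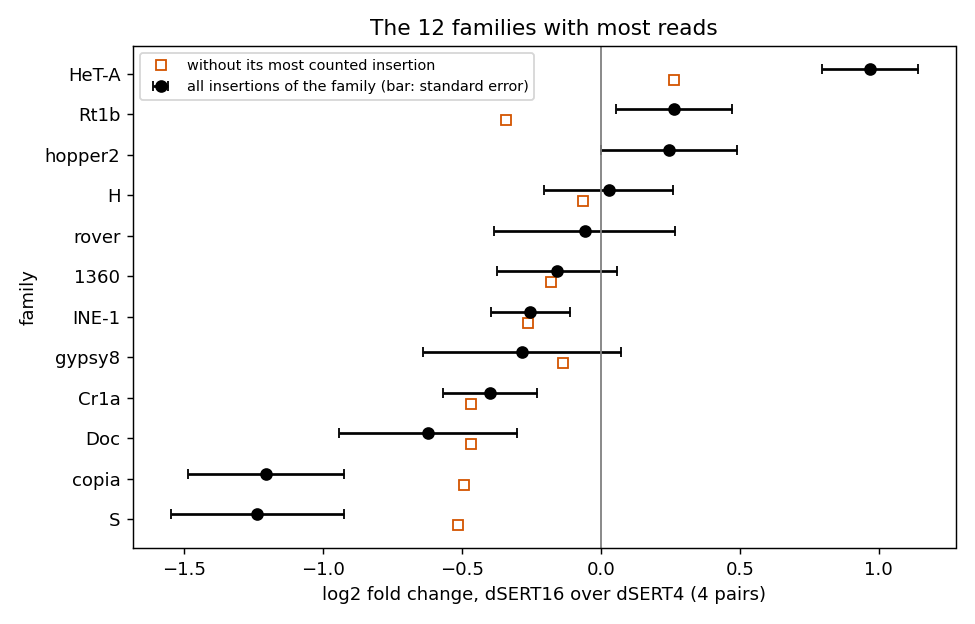
Log2 fold change of dSERT16 over dSERT4 (x axis) of the 12 families with the highest mean CPM (y axis), from summed counts in the 4 pairs. Black points with bars are all insertions of a family with the standard error, and open squares the family without its most counted insertion, where that sum passed the filter on low counts; HeT-A lay at 0.97 with and 0.26 without that insertion, copia at -1.20 and -0.49, and Rt1b at 0.26 and -0.34.

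The 12 families with the highest level held 64.4% of the reads. INE-1, spread over 277 insertions with at most 8.33% of its reads on any of them, had 44.1 CPM in dSERT16 and 52.6 CPM in dSERT4, a log2 fold change of -0.25 (SE 0.14, edgeR adjusted p = 0.820). For most others a single insertion weighed heavily, and in 37 of the 77 tested families over 50% of the reads fell on 1 insertion.

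The family copia, an LTR retrotransposon that encodes its own reverse transcriptase, had 3.54, 4.70, 4.61, 5.15 and 3.22 CPM in dSERT16 replicates 1 to 5, against 18.6, 13.7, 9.13, 8.03 and 9.88 CPM in dSERT4. Every dSERT16 sample lay below every dSERT4 sample. The log2 fold change was -1.20 (SE 0.28), which did not pass in the 4 pairs (edgeR adjusted p = 0.0824). With all 5 pairs it did (adjusted p = 0.0129), as it did with all 5 pairs and the collection date as a block (0.0323) and with DESeq2 (5.13e-04).

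Most of this difference lay in copia{}988 (chr3L:12957842-12962265, 4424 bp, between genes, 2095 bp from the odorant receptor gene Or69a). It had 2, 30, 2, 17 and 0 reads in dSERT16 replicates 1 to 5, against 746, 356, 125, 65 and 83 reads in dSERT4. In CPM, dSERT16 stood at 0.527 ± 0.594 and dSERT4 at 4.71 ± 1.85 (SD, n = 4 each), and the genotypes did not overlap in any of the 5 pairs. The log2 fold change of -3.20 had an SE of 0.95 (edgeR adjusted p = 0.319), and the 4 dSERT16 samples of the test fell into a pair near 1 CPM (1.15 and 0.922) and a pair near 0 (0.0381 and 0). Without copia{}988 the family had a log2 fold change of -0.49. Whether the dSERT16 flies carry copia{}988 in their DNA was not tested.

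Other copia insertions differed among themselves. copia{}1391 (chr3R:20109593-20114740, 98 bp from CG10887) had 0.961, 1.72, 1.47, 2.33 and 1.47 CPM in dSERT16 and 5.07, 3.75, 2.62, 2.56 and 3.39 CPM in dSERT4, again without overlap, at a log2 fold change of -0.82 (SE 0.43, edgeR adjusted p = 0.783). copia{}293 on 2L had a log2 fold change of -0.22. In contrast, copia{}1684 (chr2L:20157413-20164268), which did not pass the filter, had more reads in dSERT16, 45, 5, 42, 6 and 14, against 14, 1, 3, 6 and 1 in dSERT4.

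The family S, a DNA transposon with terminal inverted repeats, had 3.94, 4.17, 6.27, 5.75 and 2.21 CPM in dSERT16 replicates 1 to 5, against 11.2, 9.99, 10.9, 12.6 and 9.98 CPM in dSERT4. The genotypes did not overlap. The log2 fold change was -1.23 (SE 0.31, edgeR adjusted p = 0.134), and it passed with all 5 pairs (0.0357), with all 5 pairs and the date as a block (0.0285) and with DESeq2 (0.00388).

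Here too, 1 insertion held 51.8% of the reads. S{}1511 (chr4:420028-421232, 1205 bp, 4835 bp from lncRNA:CR43437) had 0.636, 1.84, 1.47, 3.52 and 0.460 CPM in dSERT16 replicates 1 to 5, against 6.67, 6.45, 5.64, 8.47 and 6.93 CPM in dSERT4. All dSERT16 values were lower, and the highest of them, replicate 4, shared its date with the highest of dSERT4. The log2 fold change was -1.92 (SE 0.48, edgeR adjusted p = 0.132), which passed with all 5 pairs (0.0454) and, in the 4 pairs, without dSERT16 replicate 4 (0.0490). The next S insertions were closer to 0, with -0.58 for S{}1623 on 2R and 0.09 for S{}1192 on 3R.

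**Figure D3:**
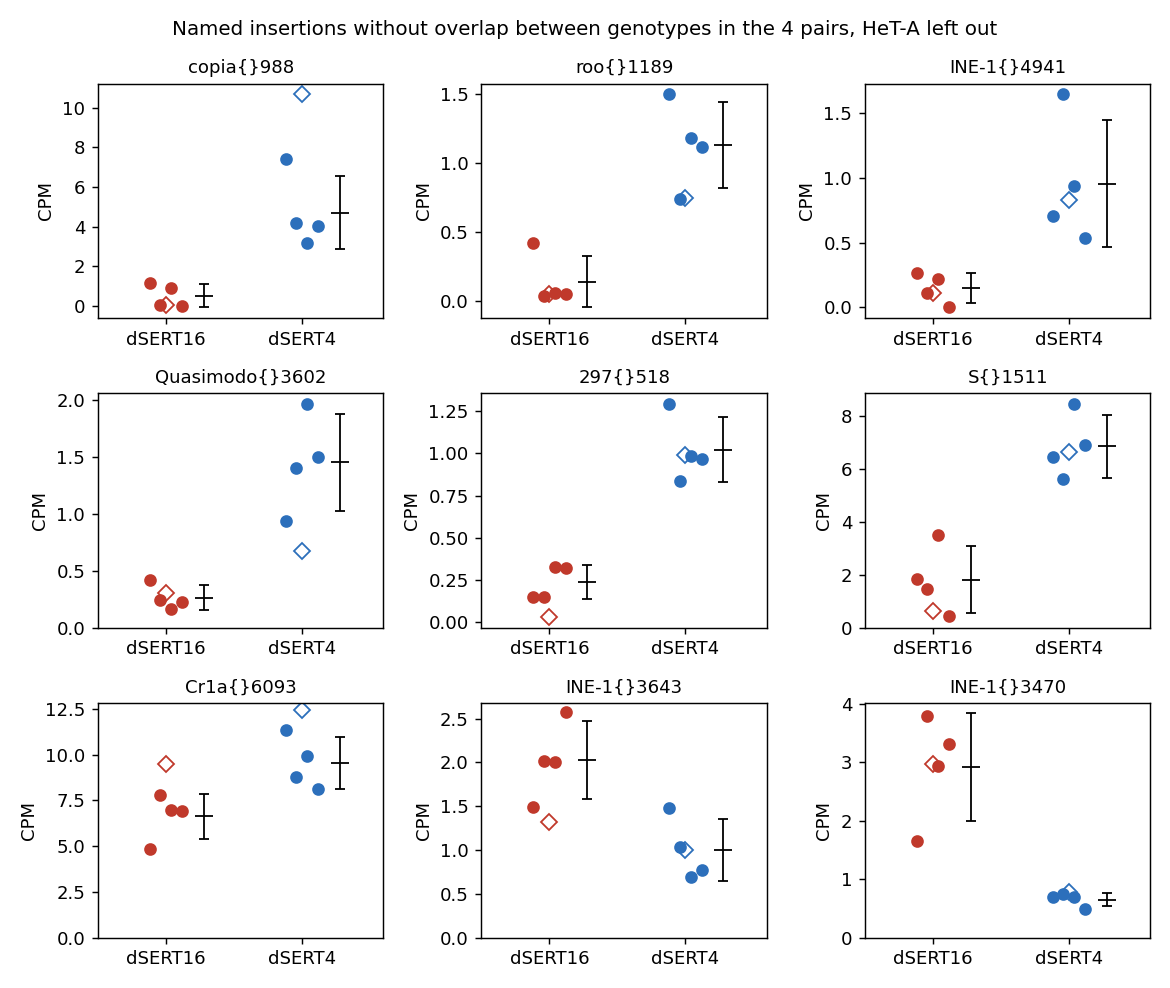
CPM (y axis of each panel) of the 9 named insertions outside the HeT-A family whose genotypes did not overlap in the 4 pairs, in dSERT16 (red, left) and dSERT4 (blue, right). Filled points are replicates 2 to 5, open diamonds replicate 1, and bars the mean and SD of the filled points; 7 are lower and 2, INE-1{}3470 and INE-1{}3643, are higher in dSERT16, and none passed the test in the 4 pairs.

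Among LTR retrotransposons with fewer reads, 3 more insertions separated the genotypes in all 5 pairs. roo{}1189 (chr3R:4366813-4375137), which overlaps part of CG1090 and lncRNA:CR44922, had 3, 11, 2, 1 and 1 reads in dSERT16, against 52, 72, 22, 24 and 23 reads in dSERT4. Its log2 fold change was -2.99 (SE 0.93, edgeR adjusted p = 0.327), and that of CG1090 was 0.02 (SE 0.10). The difference between insertion and gene was not tested, and only DESeq2 called the insertion (adjusted p = 0.0308).

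Quasimodo{}3602 (chr2R:4543280-4543938, 2753 bp from Stlk) had 20, 11, 13, 3 and 5 reads in dSERT16, against 47, 45, 42, 40 and 31 reads in dSERT4. In CPM these were 0.265 ± 0.110 in dSERT16 and 1.45 ± 0.423 in dSERT4 (SD, n = 4 each), with a log2 fold change of -2.42 (SE 0.70, edgeR adjusted p = 0.250). It too was called with DESeq2 alone (adjusted p = 0.00431). The Quasimodo family as a whole had 1.32 ± 0.512 CPM in dSERT16 and 3.24 ± 0.947 CPM in dSERT4, and the other tested insertions, Quasimodo{}3987 and Quasimodo{}2736, had log2 fold changes of -0.53 and -0.73.

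The insertion 297{}518 (chr2L:21730008-21737572, 957 bp from nolo) had 2, 4, 8, 6 and 7 reads in dSERT16, against 69, 62, 25, 20 and 20 reads in dSERT4. The genotypes were apart in all samples, at a log2 fold change of -2.12 (SE 0.75, edgeR adjusted p = 0.475). GATE, a family of LTR retrotransposons with 4 insertions of 10 or more reads, none of which passed the filter alone, summed to 0.441 ± 0.352 CPM in dSERT16 and 1.36 ± 0.214 CPM in dSERT4 (edgeR log2 fold change -1.58, SE 0.75, adjusted p = 0.728). gypsy4, the family with the lowest fold change, had -1.70 with an SE of 1.03, and its genotypes overlapped.

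Single INE-1 insertions had log2 fold changes of both signs. INE-1{}3470 (chr2R:25255992-25256184, 193 bp, 674 bp from CG9380) had 2.98, 1.64, 3.79, 2.93 and 3.32 CPM in dSERT16 replicates 1 to 5, against 0.787, 0.687, 0.738, 0.689 and 0.484 CPM in dSERT4. It was the insertion outside HeT-A with the largest positive difference among those without overlap, at a log2 fold change of 2.16 (SE 0.53, edgeR adjusted p = 0.110), and it passed with all 5 pairs (0.0380) and with DESeq2 (1.47e-04). CG9380 beside it had -0.48 (SE 0.21, adjusted p = 0.639), the opposite sign.

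INE-1{}3643 (chr3R:4268510-4269121, 100 bp from flip) had 85, 39, 106, 37 and 56 reads in dSERT16, against 70, 71, 31, 14 and 16 reads in dSERT4, or 2.02 ± 0.444 CPM in dSERT16 and 0.996 ± 0.355 CPM in dSERT4 in the 4 pairs. The genotypes were apart by little in the 4 pairs, at a log2 fold change of 1.01 (SE 0.55, edgeR adjusted p = 0.800), and overlapped once replicate 1 was included. Its neighbour flip had a log2 fold change of 0.78 (SE 0.22, adjusted p = 0.240). INE-1{}4941 (chrX:20414528-20414578, 51 bp long and 329 bp from CG15458) had 7, 7, 6, 4 and 0 reads in dSERT16 and 58, 34, 49, 19 and 11 reads in dSERT4, a log2 fold change of -2.65 (SE 0.94, adjusted p = 0.475), and CG15458 had -2.34 (SE 0.69, adjusted p = 0.265).

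Insertions were also compared with their nearest genes. Over 47 tested insertions within 1 kb of a tested gene (44 genes), the log2 fold changes of insertion and gene had a Pearson correlation of 0.240 and the same sign in 25, and none of the genes was called. Over 47 insertions farther than 1 kb, the correlation was 0.0019, again with 25 of the same sign. The points share the same libraries, and some share a gene, so this is a description across insertions.

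One stretch of chromosome 4, between 410 and 460 kb and chosen after its values were seen, held S{}1511 and 17 further insertions. All 9 that passed the filter had a log2 fold change below 0, with a median of -0.93, and 6 of them did not overlap between genotypes in the 4 pairs, where 2.39% of all features tested were lower without overlap. In all 5 pairs 4 did not overlap, for which no share over all features was computed. Since the stretch was chosen after its values were seen, the share over all features cannot serve as a test of it. Close neighbours were counted as separate insertions, and whether they share a transcript was not tested. None passed the test. X{}5492, a non-LTR retrotransposon, had 84, 24, 94, 18 and 18 reads in dSERT16, against 254, 115, 76, 42 and 69 reads in dSERT4, or 1.13 ± 0.446 CPM in dSERT16 and 2.59 ± 0.541 CPM in dSERT4 in the 4 pairs (log2 fold change -1.18, SE 0.50, edgeR adjusted p = 0.636). INE-1{}5542 and INE-1{}5544, which lie between X{}5492 and S{}1511, had log2 fold changes of -1.67 (SE 0.71) and -1.52 (SE 0.65).

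At the other end of the stretch stood Cr1a{}6093 (chr4:455789-459194, 574 bp from asRNA:CR45126), a non-LTR retrotransposon and 1 of the 10 insertions with the highest level. It had 9.47, 4.86, 7.77, 7.00 and 6.91 CPM in dSERT16, against 12.4, 11.3, 8.79, 9.95 and 8.14 CPM in dSERT4. It was lower in dSERT16 in each of the 5 pairs, at a log2 fold change of -0.53 (SE 0.25, edgeR adjusted p = 0.725). Between them, INE-1{}5913 beside lgs stood at -0.35 (SE 0.83).

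**Figure D4:**
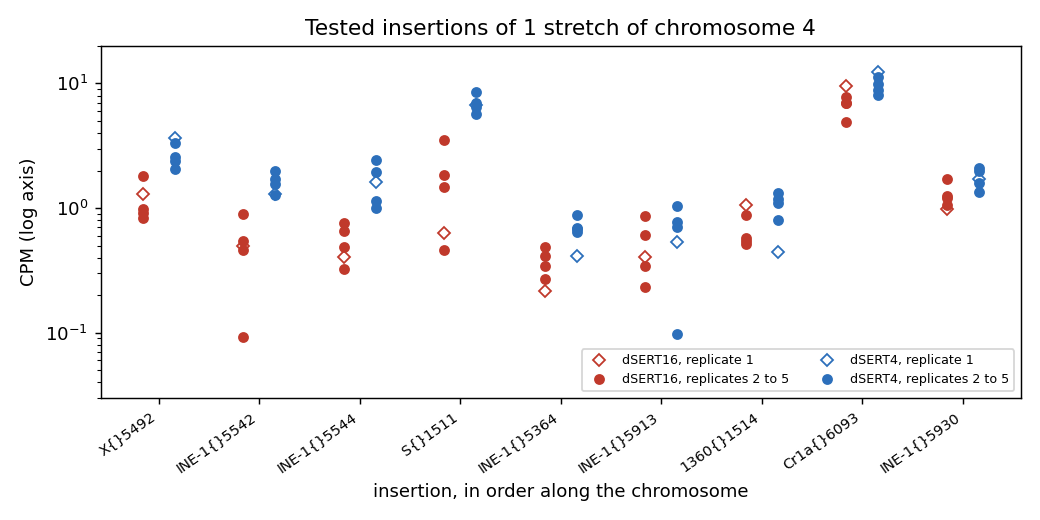
CPM (y axis, log scale) of the 9 tested insertions between 410 and 460 kb of chromosome 4, in order along the chromosome (x axis), in dSERT16 (red, left) and dSERT4 (blue, right). Filled points are replicates 2 to 5 and open diamonds replicate 1. Over the filled points, the separation is widest at S{}1511, and INE-1{}5913, 1360{}1514 and INE-1{}5930 overlap. With the open diamonds, INE-1{}5364 and Cr1a{}6093 overlap as well.

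Of the 10 insertions with the highest mean CPM, all but S{}1511, Cr1a{}6093 and HeT-A{}6262 overlapped between genotypes in the 4 pairs. Cr1a{}2411 (chr3L:23716824-23720346, 135 bp from Spf30), with 8158 reads the most read of all, had 21.5, 16.8, 19.3, 15.5 and 17.5 CPM in dSERT16, against 26.7, 29.2, 21.2, 20.3 and 16.5 CPM in dSERT4. The ranges overlapped at dSERT4 replicate 5, and the log2 fold change was -0.34 (SE 0.19, edgeR adjusted p = 0.820). The Cr1a family, of which it held 52.4% of the reads, had 32.0 ± 5.02 CPM in dSERT16 and 42.2 ± 8.92 CPM in dSERT4, a log2 fold change of -0.40 (SE 0.17, adjusted p = 0.645).

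rover{}243 (chrX:22430064-22435354), the only insertion of its family with 10 or more reads, varied widely within each genotype. It had 6.00, 27.3, 11.6, 18.4 and 20.1 CPM in dSERT16, against 5.71, 9.76, 31.7, 19.9 and 19.5 CPM in dSERT4. Replicate 1 was the lowest in both genotypes. The log2 fold change was -0.06 (SE 0.32, edgeR adjusted p = 0.995), and it was 0.24 without dSERT4 replicate 3 and 0.12 without dSERT16 replicate 3.

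Rt1b{}161 (chrX:18783882-18785788, 17 bp from CR6900), a non-LTR retrotransposon, had 11.9, 12.4, 12.0, 16.5 and 9.76 CPM in dSERT16, against 7.56, 12.5, 5.57, 7.29 and 8.28 CPM in dSERT4. It was higher in dSERT16 in 4 of 5 pairs but the ranges overlapped (log2 fold change 0.59, SE 0.27, edgeR adjusted p = 0.711). Since it held 65.1% of the Rt1b reads, the family stood at 0.26 (SE 0.21) with it and at -0.34 (SE 0.31) without it. hopper2{}461 on 2L, with 94.3% of its family's reads, had 8.49, 8.84, 7.75 and 7.14 CPM in dSERT16 replicates 2 to 5, against 5.83, 6.04, 6.85 and 8.04 CPM in dSERT4, with overlap.

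On chromosome 4, INE-1{}3974 (136 bp from Dyrk3) had 3.94 ± 0.739 CPM in dSERT16 and 4.48 ± 0.781 CPM in dSERT4, and INE-1{}5359 (750 bp from Crk) had 3.17 ± 1.05 CPM in dSERT16 and 4.34 ± 0.313 CPM in dSERT4 (SD, n = 4 each). Both overlapped between genotypes. Of the remaining families with many reads, 1360 had a log2 fold change of -0.16 (SE 0.22), H 0.03 (SE 0.23), gypsy8 -0.28 (SE 0.36) and Doc, which was lower in dSERT16 in each of the 5 pairs, -0.62 (SE 0.32, edgeR adjusted p = 0.783). The largest positive values after HeT-A, 0.64 for gypsy10 and 0.56 for G5, had SEs of 0.85 and 0.76, and G5 without its most counted insertion stood at -1.01.

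Of the 12 HeT-A insertions, 7 were tested, with log2 fold changes of both signs. The family sum was higher in dSERT16 in each of the 5 pairs without overlap, but without the most counted copy the log2 fold change was 0.26 (SE 0.19, edgeR adjusted p = 0.869). That copy, HeT-A{}6262 (chr4:1314342-1320140), lies outermost of the 12 telomeric insertions on chromosome 4 with 10 or more reads. It had 13.3, 12.0, 15.2, 12.1 and 12.3 CPM in dSERT16, against 0.930, 1.25, 0.839, 2.51 and 1.11 CPM in dSERT4 (log2 fold change 3.19, SE 0.35, adjusted p = 6.96e-04), and was called without each library in turn.

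HeT-A{}4617 (chr4:1277577-1278360), which stood at 1.83 ± 0.555 CPM in dSERT16 and 0.109 ± 0.0498 CPM in dSERT4, had a log2 fold change of 4.09 (SE 0.77, edgeR adjusted p = 0.0296). It had 34, 85, 48 and 39 reads in dSERT16 replicates 2 to 5, against 2, 3, 3 and 3 reads in dSERT4. HeT-A{}4617 thus passed the filter on low counts through dSERT16 alone, and its call is given as a description. The call was lost with the collection date as a block (0.0514) and without any 1 of the 8 libraries (0.0617 to 0.134). HeT-A{}6278, which begins 69 bp beyond its end, overlapped between genotypes, with 8.39, 6.85, 7.72, 7.48 and 8.84 CPM in dSERT16 and 4.39, 6.47, 5.07, 7.93 and 8.62 CPM in dSERT4 (log2 fold change 0.14, SE 0.26).

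HeT-A{}6268, the copy before HeT-A{}6262, had 3.11 ± 1.55 CPM in dSERT16 and 0.457 ± 0.321 CPM in dSERT4 (log2 fold change 2.79, SE 0.63, edgeR adjusted p = 0.0767), and HeT-A{}6270 had 0.890 ± 0.208 CPM in dSERT16 and 0.949 ± 0.114 CPM in dSERT4 (SD, n = 4 each). On the X chromosome, HeT-A{}5504 had 0.590 ± 0.528 CPM in dSERT16 and 1.86 ± 0.324 CPM in dSERT4, and HeT-A{}4795 had 1.61 ± 0.338 CPM in dSERT16 and 2.41 ± 0.539 CPM in dSERT4. Both X copies were lower in dSERT16 in each of the 5 pairs, with log2 fold changes of -1.67 (SE 0.75, adjusted p = 0.671) and -0.58 (SE 0.47, adjusted p = 0.887). Only uniquely mapped reads were counted, and copies as alike as these may exchange reads, so the copy behind a read remained uncertain.

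**Figure D5:**
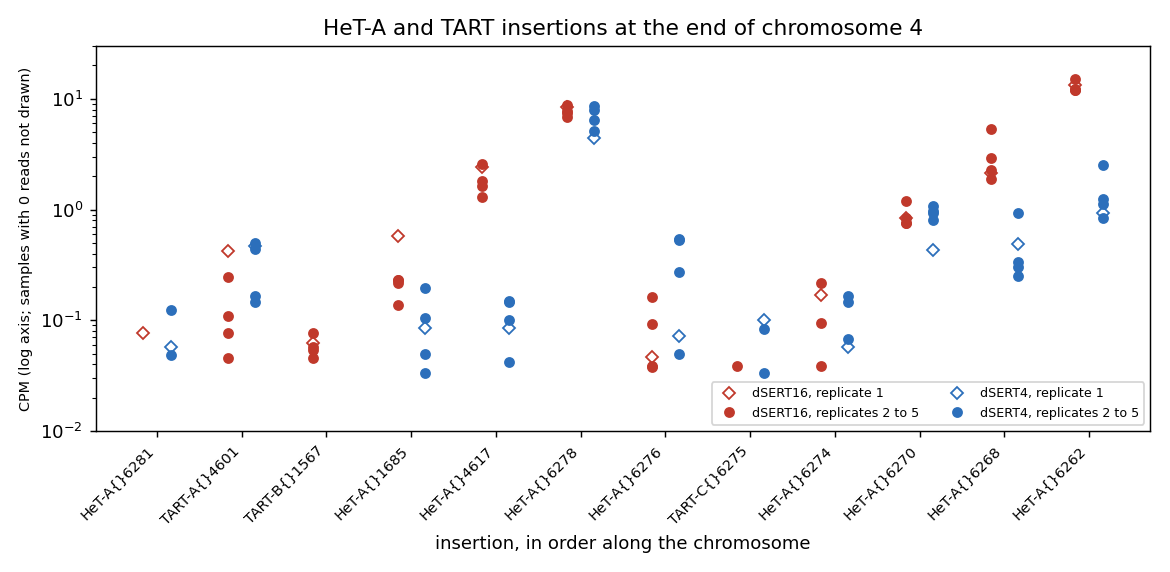
CPM (y axis, log scale, samples without a read not drawn) of the 12 HeT-A and TART insertions with 10 or more reads at the end of chromosome 4, in order along the chromosome (x axis), in dSERT16 (red, left) and dSERT4 (blue, right). Filled points are replicates 2 to 5 and open diamonds replicate 1; HeT-A{}4617, HeT-A{}6268 and HeT-A{}6262 lie apart between genotypes, and HeT-A{}6278 and HeT-A{}6270 overlap.

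TART, the partner of HeT-A at the telomeres, was barely read. TART-A{}4601 had 27, 2, 13, 2 and 1 reads in dSERT16, against 33, 8, 15, 9 and 3 in dSERT4, and TART-C{}6275 had 1 read in all in dSERT16 and 12 in dSERT4 over the 5 samples of each. TART-B{}1567 had 4, 2, 3, 1 and 1 reads in dSERT16 and none in dSERT4. It reached 10 reads through dSERT16 alone, so no fold change is given, and no TART insertion passed the filter.

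Some insertions had reads in 1 genotype only. There were 26 without a read in any of the 5 dSERT16 libraries and 7 without a read in any of the 5 dSERT4 libraries, which is 4.23% without a read in dSERT16 and 1.14% without one in dSERT4 of the 615 insertions with 10 to 49 reads, the span of these 33. Of 2256 genes with 10 to 49 reads, 2.75% had no read in dSERT16 and 1.24% none in dSERT4, and the difference between insertions and genes was not tested. The most read of them, opus{}2511 (chr2R:5111864-5112086), an LTR retrotransposon, had no read in dSERT16, against 17, 30, 0, 1 and 1 reads in dSERT4. Circe{}4888 (chr2L:21593077-21595423) was the only one of the 26 with reads in all 5 dSERT4 libraries, 10, 3, 1, 1 and 12. All 33 reached 10 reads only through the genotype that had them, so no fold change is given. With so few reads, these insertions were not tested one by one in the 4 pairs.

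Genes that silence transposable elements or protect telomeres were examined from lists. The 36 silencing genes summed to 1690 to 1973 CPM in dSERT16 and 1597 to 1654 CPM in dSERT4 over the 4 pairs, which was not tested. Of them, 24 passed the filter, with a median log2 fold change of -0.06 against 0.00 over all features. Among these 1 was called, where 0.495% of all features passed. This was tapas, a Tudor domain gene of the piRNA pathway, with 212 ± 30.6 CPM in dSERT16 and 117 ± 16.5 CPM in dSERT4 (log2 fold change 0.86, SE 0.12, edgeR adjusted p = 0.00411). Hen1, which methylates small RNAs at their 3' ends, had 2.68 ± 1.07 CPM in dSERT16 and 6.56 ± 1.33 CPM in dSERT4 (-1.28, SE 0.37, adjusted p = 0.240), and aub, a Piwi protein of the germ line, 0.437 ± 0.292 CPM in dSERT16 and 1.80 ± 1.39 CPM in dSERT4 (adjusted p = 0.636).

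AGO1, the Argonaute of microRNAs, had 697 ± 69.6 CPM in dSERT16 and 582 ± 40.3 CPM in dSERT4 (log2 fold change 0.26, SE 0.09, edgeR adjusted p = 0.422). Of 6 genes of the telomere cap, 5 were tested, none was called, and their median was 0.43. Their summed level overlapped over the 4 pairs, at 109 to 121 CPM in dSERT16 and 111 to 117 CPM in dSERT4. Over all the lists, 10 genes had no read in the 4 pairs, among them the piRNA factors armi, squ, rhi and moon and the cap gene moi, and all 10 lie wholly within the span of another gene, where reads were not assigned.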

How the data were processed

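The authors prepared the libraries by SMART-seq, aligned reads with STAR to the BDGP6 (dm6) genome, and deposited raw counts of uniquely mapped reads per feature for each sample. The STAR version and annotation release are not given in the sources used here. The unstranded counts were used. A deposited table of TPM values by the authors served only to tell which 4 pairs they used (replicate 1 has no TPM column), and its columns of log2 fold changes, p-values and adjusted p-values were not used. Names and positions came from the Ensembl annotation of the same build. CPM are counts over TMM-scaled library sizes. Features were fitted together with edgeR 4.0.16 (R 4.3.3, filterByExpr, robust quasi-likelihood) on replicates 2 to 5 without a block, once with single insertions and once with family sums, and differences were called at an adjusted p under 0.05. The step was tested on simulated data. Collection dates in the labels pair the samples. Deviations of same-date samples had correlations of 0.108, 0.0990, 0.0561 and 0.0835 in replicates 2 to 5. Those of different dates ranged between -0.105 and 0.0783, so the ranges overlapped. Alternatives were all 5 pairs, the date as a replicate block, DESeq2 1.42.0, its size factors, no filter, summed strand counts, a threshold of 0.01, each library left out, and other family sums. Insertions named were the called ones, the 10 with the highest mean CPM and the 5 with the largest change in each direction among those without overlap; families named were the 12 with the highest level, the called, the 3 with the largest change in each direction and the telomeric ones. TAHRE had no entry among the members. Others were named after their values were seen. Members and lists were chosen with earlier results of these data known. No libraries of a genotype agreed within sampling noise.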

Additional observations from a re-analysis of the deposited data

Results flagged for a closer look

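In 8 of 80 groups of 4 samples examined (19 insertions, 20 families and the share of reads), 1 sample lay far from the others by Dixon's criterion at the 95% level. Chance alone gives this in about 1 of 20 independent groups of normal values. These groups share insertions and libraries, and some hold few reads, so their number cannot be set against that rate. HeT-A{}6262 reached 15.2 CPM in dSERT16 replicate 3, with the other dSERT16 samples at 12.0 to 12.3 CPM. HeT-A{}6268 reached 0.936 CPM in dSERT4 replicate 4, with the others at 0.250 to 0.339 CPM. roo{}1189 reached 0.421 CPM in dSERT16 replicate 2, with the others at 0.0381 to 0.0542 CPM.

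Among families, INE-1 was lowest in dSERT4 replicate 5, at 41.6 CPM with the others at 55.4 to 57.3 CPM. gypsy8 was highest in dSERT16 replicate 2, at 7.34 CPM with the others at 4.19 to 4.71 CPM. GATE was lowest in dSERT4 replicate 4, at 1.03 CPM with the others at 1.45 to 1.48 CPM. TART-C was seen in dSERT16 replicate 2 alone of the 4, at 0.0383 CPM, which is 1 read. The share of reads on insertions was lowest in dSERT4 replicate 5, at 0.0262% with the others at 0.0353 to 0.0368%.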

How the results depend on the processing

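The number of insertions called was 2 in the 4 pairs (0.495% of all features), 5 with all 5 pairs (0.756%) and 7 with DESeq2 (1.53%). Of those 7, 4 were higher and 3 lower in dSERT16. It was 4 of 985 without the filter on low counts (0.498%) and 1 with the collection date as a replicate block (0.621%). At an adjusted p under 0.01 it was 1, and with 1 library left out 1 to 2, without a share of all features at hand. The number of families called was 1 in the 4 pairs (0.498% of all features in that fit), 3 with DESeq2 (1.43%), 3 with all 5 pairs (0.751%), 3 with the date as a block over all 5 pairs (1.09%), 0 at an adjusted p under 0.01, 0 without each family's most counted insertion, and 0 to 1 with 1 library left out. HeT-A{}6262 was called in each of these; families S and copia joined HeT-A in the fits with 3. The family HeT-A was not called without replicate 3 or replicate 5 of either genotype (adjusted p = 0.0521 to 0.0936).

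Signs turned for values near 0 or resting on 1 insertion. With the date as a block over all 5 pairs, rover{}243 moved to 0.0061 and its family to 0.0065, and with 1 library left out both ranged between -0.29 and 0.24, above 0 without replicate 3 of either genotype. Without the most counted insertion, Rt1b moved to -0.34, H to -0.065 and G5 to -1.01. With 1 library left out, H ranged between -0.087 and 0.15. The cause was not tested. The share of reads on insertions kept its direction. At 10 to 85 reads over 10 libraries, most insertions could not be tested, since the fewest reads of a tested one were 86.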
